A study of Homo sapiens with 18 samples.

Results

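Gene expression was compared directly between 2 THP-1 knockdown lines after LPS, shNR4A2 + LPS against shNR4A3 + LPS, with 3 libraries in each line, 6 of the 18 libraries of the series. THP-1 is a human monocytic leukaemia line that grows in suspension. Its cells had been transduced with lentiviral particles carrying a short hairpin RNA against NR4A2 or against NR4A3, or a non-targeting hairpin (shNT), and were kept under puromycin selection, so every library used here comes from transduced cells. Each hairpin is represented by 1 stable line, so the effect of a knockdown and any other difference between the lines cannot be told apart in these data. All 6 libraries came from cells rested for 2 h and then exposed to LPS (lipopolysaccharide, the cell wall component of Gram-negative bacteria that is sensed by Toll-like receptor 4) at 2.5 μg/ml for 2 h. The 3 shNT + LPS libraries are given beside them as a reference level, and the 6 unstimulated (control) libraries of the same 2 lines show whether a difference was already there without LPS. The counted reads were 17361839, 19623617 and 20035677 in shNR4A2 + LPS and 19151880, 16171161 and 21004337 in shNR4A3 + LPS. Levels are given as TPM, read counts divided by gene length and scaled to the same total in each library, so that levels of different genes can be set side by side.

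NR4A1, NR4A2 and NR4A3 are orphan nuclear receptors, transcription factors that are made within minutes to hours of a stimulus and that regulate genes without a known natural ligand. They share a DNA-binding domain, bind as monomers to the NBRE element AAAGGTCA, and in monocytes and macrophages they are induced by inflammatory signals and act on the inflammatory and metabolic programme. The comparison asks in which genes depletion of the one receptor left stimulated monocytes with a different transcript level from depletion of the other.

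Each hairpin was seen in the level of its own target. NR4A2 (chr2:156324432-156342348, GRCh38) stood at 20.5, 28.3 and 14.8 TPM in the 3 shNR4A2 + LPS libraries and at 41.8, 60.7 and 38.3 TPM in shNR4A3 + LPS. The groups did not overlap, and the level in shNT + LPS was higher still, at 62.2, 74.7 and 51.3 TPM. The log2 fold change of NR4A2, shNR4A2 over shNR4A3, was -1.15 (SE 0.21, adjusted p = 0.035 by the edgeR quasi-likelihood test with Benjamini-Hochberg adjustment). NR4A3 (chr9:99821855-99866891) lay the other way, at 33.0, 32.8 and 36.1 TPM in shNR4A2 + LPS and 17.0, 18.2 and 16.7 TPM in shNR4A3 + LPS. The shNR4A2 libraries were close to shNT + LPS here, where NR4A3 stood at 30.9, 32.3 and 31.9 TPM. Its log2 fold change was 0.98 (SE 0.10, adjusted p = 0.0024 by edgeR), just under 2-fold. NR4A1, which neither hairpin targets, had means of 15.1 TPM in shNR4A2 and 18.2 TPM in shNR4A3, with overlapping libraries and a log2 fold change of -0.27 (SE 0.11, adjusted p = 0.24 by edgeR). With the replicate number as a block the adjusted p by edgeR was 7.6e-07 for NR4A2, 2.1e-06 for NR4A3 and 0.014 for NR4A1. A two-sided exact permutation test on TPM gave p = 0.1 for NR4A2, p = 0.1 for NR4A3 and p = 0.2 for NR4A1, and 0.1 is the smallest value that 3 libraries against 3 allow. The call of NR4A2 was lost when any library other than shNR4A2 + LPS replicate 2 was left out, with adjusted p between 0.056 and 0.098 by edgeR, while the call of NR4A3 was kept in all 6 such fits.

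The lines were apart on the first principal component of the 6 libraries, which held 53.0% of the variance of the 500 most variable genes. The shNR4A2 libraries scored -13.1, -14.6 and -14.7 on it and the shNR4A3 libraries 14.9, 14.6 and 12.9. The second component held 23.7% and put replicate 2 of both lines, at -12.1 and -13.9, apart from the other 4 libraries, which scored between 2.2 and 9.6. With the line means taken off, same-numbered libraries of the 2 lines correlated at 0.35, 0.53 and 0.39 across genes. Counts with the replicate number as a block are therefore given beside those without it.

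**Figure D1:**
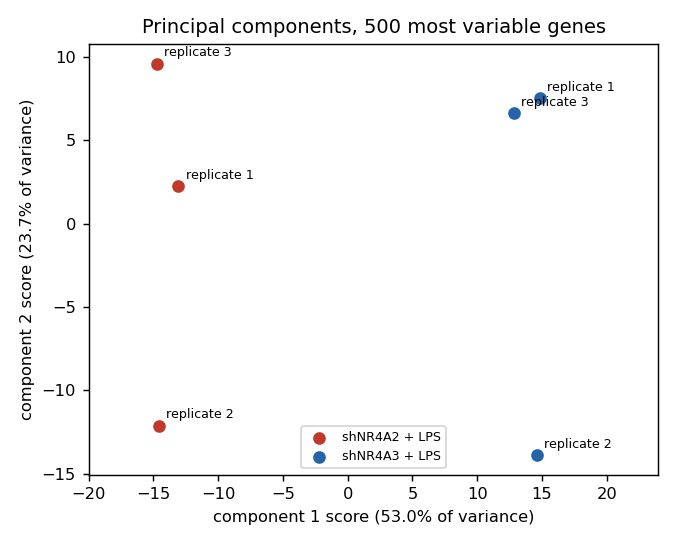
Scores of the 6 LPS libraries on the first (x axis) and second (y axis) principal component of log2 CPM (library-scaled counts), 1 point a library, coloured by line. The lines separate along the x axis, at -14.7 to -13.1 against 12.9 to 14.9, and replicate 2 of both lines lies at the bottom, under -12.

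Of 15539 genes tested by edgeR, 149 differed between the lines by at least 2-fold with an adjusted p below 0.05. The higher level was in shNR4A2 cells for 105 of these (0.676% of the genes tested) and in shNR4A3 cells for 44 (0.283%). The 3 libraries of the one line lay above the 3 of the other in all 149, as in 21.1% of all genes tested, and genes chosen for a 2-fold change at a small adjusted p can hardly overlap. Without the fold limit, 197 genes were higher in shNR4A2 (1.27%) and 165 were higher in shNR4A3 (1.06%), a total of 362 that fell to between 94 and 217 when any library was left out. The median log2 fold change over all genes tested was 0.01. Of all genes tested, 2.33% passed the adjusted p in edgeR, 4.49% passed it in DESeq2, 17.8% had an unadjusted p under 0.05 and 23.6% passed with the replicate block, and the counts in gene lists are to be read against these shares. With the replicate block, edgeR called 379 genes at 2-fold, 272 higher in shNR4A2 and 107 higher in shNR4A3, and without the fold limit 1839 (11.8%) and 1827 (11.8%). All 149 genes were past the adjusted p with the block as well. The 2-fold count fell to 97 without shNR4A2 + LPS replicate 1, to 61 without shNR4A3 + LPS replicate 1 and to 75 without shNR4A3 + LPS replicate 3. Of the 105 genes higher in shNR4A2, 31 were past the adjusted p whichever of the 6 libraries was left out, as were 25 of the 44 higher in shNR4A3. Called genes described in the next paragraphs were past it in all of these fits unless a loss is stated. In bulk libraries, fewer cells with a transcript and less of it per cell cannot be told apart.

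**Figure D2:**
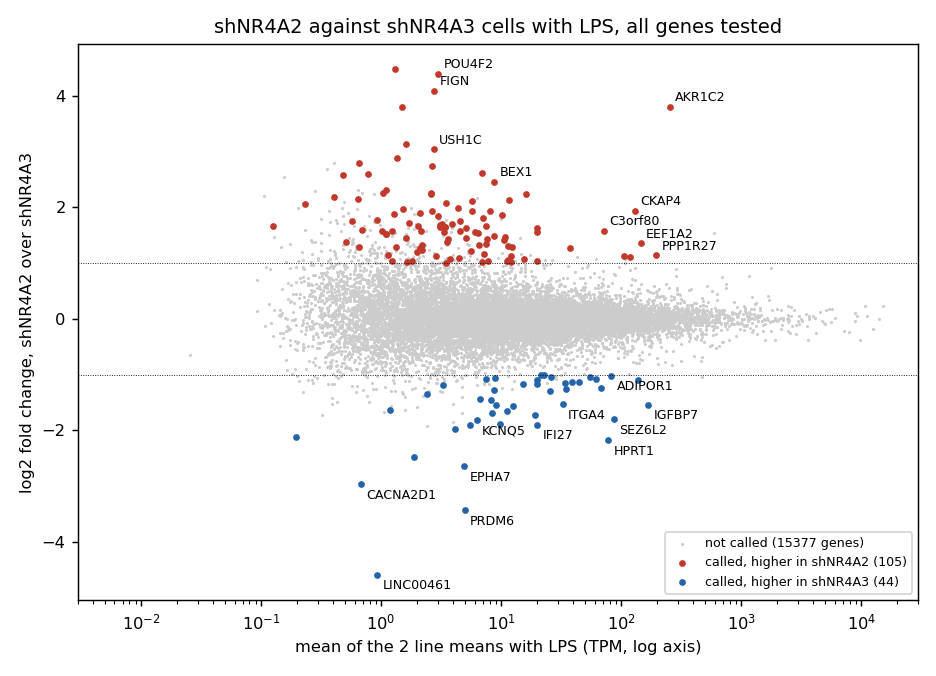
Log2 fold change, shNR4A2 over shNR4A3 with LPS (y axis), against the mean of the 2 line means in TPM (x axis, log scale), 1 point a gene, Y-linked genes and XIST not drawn. Red points are the 105 genes called higher in shNR4A2 and blue points the 44 called higher in shNR4A3, and the dotted lines mark 2-fold. AKR1C2, at the upper right, combines a high level with a fold change of 3.81 on the log2 scale.

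Among genes called higher in shNR4A2 cells at 2-fold, AKR1C2 had the largest difference in level. AKR1C2, AKR1C1 and AKR1C3 are neighbouring genes on chromosome 10 for aldo-keto reductases that reduce steroids and reactive carbonyls. AKR1C2 (chr10:4987400-5018031) stood at 459, 497 and 461 TPM in shNR4A2 + LPS against 38.5, 30.4 and 31.9 TPM in shNR4A3 + LPS. The shNT + LPS libraries, at 38.6, 41.5 and 37.1 TPM, were at the level of shNR4A3. The log2 fold change was 3.81 (SE 0.13, adjusted p = 1.1e-05 by edgeR). AKR1C1 had log2 fold changes in the same direction of 1.66 (11.3 against 3.56 TPM) and AKR1C3 of 1.80 (8.96, 11.4 and 12.7 against 4.04, 3.05 and 2.36 TPM). The 3 genes are close paralogs, and reads of AKR1C2 could be assigned to the other 2, so their separate changes are uncertain.

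Several of the largest fold changes were in genes of low level. POU4F2, a POU homeodomain transcription factor of retinal ganglion cells, stood at 4.56, 6.36 and 6.09 TPM in shNR4A2 + LPS and at 0.29, 0.28 and 0.21 TPM in shNR4A3 + LPS, a log2 fold change of 4.40 (SE 0.29, adjusted p = 0.00023 by edgeR). It stood between 0.29 and 0.51 TPM in shNT + LPS, the level of shNR4A3. FIGN, which encodes the microtubule-severing ATPase fidgetin, had 4.72, 6.48 and 4.47 TPM in shNR4A2 and 0.15, 0.34 and 0.42 TPM in shNR4A3, a log2 fold change of 4.09 (SE 0.29, adjusted p = 0.00030 by edgeR). Here shNT + LPS, at 4.50, 5.51 and 4.40 TPM, was at the level of shNR4A2. USH1C, the scaffold protein harmonin of hair cells and epithelial brush borders, differed by 3.04 on the log2 scale (means 4.91 and 0.59 TPM). BEX1, a small adaptor protein of neural cells encoded on the X chromosome, differed by 2.46 (14.7 and 2.68 TPM), with 20.1 TPM in shNT. CAVIN3, a coat protein of caveolae, differed by 3.80 (2.82 and 0.185 TPM).

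The remaining genes with the largest fold changes lost the call in some fits with a library left out. Those fits hold fewer libraries and no replicate block, so a lost call need not mean a smaller difference. With the block and all 6 libraries these genes kept the call, for example PRG2 and CAPN6 at adjusted p of 0.00012 and 0.00097 by edgeR. PRG2, the eosinophil major basic protein, had the largest fold change of all genes called higher in shNR4A2, 4.47 on the log2 scale, at means of 2.53 and 0.09 TPM. Its adjusted p by edgeR was 0.069 without shNR4A3 + LPS replicate 1 and 0.054 without replicate 3 of that line. TMEM176B (3.14) and OSMR, the oncostatin M receptor (2.30), lost the call only without shNR4A3 + LPS replicate 1, at adjusted p of 0.055 and 0.071 by edgeR. SCG2 (2.74), a secretory granule protein, MCF2 (2.59), a guanine nucleotide exchange factor, and IGLON5 (2.61), a neural cell adhesion protein, lost it without replicate 1 or replicate 3 of shNR4A3 + LPS, with adjusted p between 0.054 and 0.058 by edgeR. TCEA3 (2.88) lost it in all fits but that without shNR4A3 + LPS replicate 3, with adjusted p up to 0.096 by edgeR, and CAPN6 (2.80) in all 6, with adjusted p up to 0.133.

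Several abundant transcripts were also higher in shNR4A2 cells. CKAP4, a membrane protein of the rough endoplasmic reticulum that also serves as a surface receptor, had 172, 259 and 186 TPM in shNR4A2 + LPS and 48.1, 64.7 and 48.3 TPM in shNR4A3 + LPS. Its log2 fold change was 1.94 (SE 0.14, adjusted p = 0.00040 by edgeR), and both lines were under shNT + LPS, at 393, 466 and 408 TPM. EEF1A2, a tissue-restricted translation elongation factor, had 187, 236 and 205 TPM against 69.0, 88.9 and 87.3 TPM, a log2 fold change of 1.36. BHLHE22, a basic helix-loop-helix repressor of neural development, had means of 145 TPM in shNR4A2 and 66.3 TPM in shNR4A3, both above the 23.0 TPM of shNT, and a log2 fold change of 1.13. C3orf80 differed by 1.58 (107 and 35.6 TPM) and PPP1R27, a regulatory subunit of protein phosphatase 1, by 1.14 (269 and 122 TPM). For both of these, shNT + LPS had a mean near that of shNR4A2, 134 TPM for C3orf80 and 254 TPM for PPP1R27. NTSR1, a neurotensin receptor, differed by 1.27 (52.5 and 21.8 TPM) and lost the call without replicate 1 or 2 of shNR4A2 + LPS or replicate 1 or 3 of shNR4A3 + LPS, with adjusted p up to 0.144 by edgeR. The antisense transcript AL451062.1 differed by 1.11 (163 and 75.2 TPM). The strand setting of the counting is not given in the sources used here, so its reads and those of ST3GAL3 on the opposite strand may not be told apart.

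Among genes higher in shNR4A3 cells, HPRT1 combined a high level with a large fold change. HPRT1 (chrX:134460153-134520513) encodes the purine salvage enzyme hypoxanthine phosphoribosyltransferase. It had 28.9, 31.1 and 24.7 TPM in shNR4A2 + LPS and 119, 128 and 135 TPM in shNR4A3 + LPS, a log2 fold change of -2.17 (SE 0.11, adjusted p = 4.9e-05 by edgeR). The shNT + LPS libraries, at 114, 131 and 125 TPM, lay with shNR4A3. The same arrangement, with shNR4A2 low and shNT at the level of shNR4A3, was seen in other abundant genes. SEZ6L2, a membrane protein best known from neurons, had means of 38.6 TPM in shNR4A2, 135 TPM in shNR4A3 and 138 TPM in shNT (log2 fold change -1.80). LAMTOR5, a subunit of the Ragulator complex that recruits mTORC1 to lysosomes, had 45.5, 37.8 and 36.7 TPM in shNR4A2 and means of 94.6 TPM in shNR4A3 and 99.6 TPM in shNT (-1.24). ADIPOR1, an adiponectin receptor, had means of 54.9, 111 and 112 TPM in the same order (-1.02), and CNOT11, a subunit of the CCR4-NOT deadenylase, had means of 39.7, 83.6 and 77.8 TPM (-1.07). IGFBP7, a secreted protein that binds insulin-like growth factors, was arranged differently, with 83.8, 94.5 and 81.0 TPM in shNR4A2, 235, 260 and 258 TPM in shNR4A3 and a mean of 63.6 TPM in shNT. Its log2 fold change was -1.54 (SE 0.08, adjusted p = 6e-05 by edgeR).

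The largest fold changes in this direction were again in genes of low level. LINC00461, a long noncoding RNA, had a log2 fold change of -4.59 (SE 0.52, adjusted p = 0.0039 by edgeR), at 0.10, 0 and 0.11 TPM in shNR4A2 and 1.89, 2.02 and 1.44 TPM in shNR4A3. PRDM6, a repressor of smooth muscle genes, had 0.78, 0.91 and 0.82 TPM against 8.26, 11.3 and 7.77 TPM, a log2 fold change of -3.43 (SE 0.17, adjusted p = 4.9e-05 by edgeR). In shNT + LPS it had a mean of 0.89 TPM, the level of shNR4A2. EPHA7, an ephrin receptor tyrosine kinase, had 1.33 to 1.4 TPM in shNR4A2 against 8.28, 8.51 and 8.60 TPM (-2.64), with 2.66 TPM in shNT. CACNA2D1, an auxiliary subunit of voltage-gated calcium channels, was near 0 in shNT and shNR4A2 (means 0.05 and 0.15 TPM) and at 1.21 TPM in shNR4A3 (-2.97). KCNQ5, a potassium channel subunit, had 14.2 TPM in shNT, 2.76 TPM in shNR4A2 and 9.73 TPM in shNR4A3 (-1.82). CERKL, SESN3, which encodes a stress-induced inhibitor of mTORC1, and METRN, a neurotrophic factor, differed by -1.89, -1.73 and -1.69. SYDE2 differed by -2.48 and lost the call without shNR4A3 + LPS replicate 1 (adjusted p = 0.060 by edgeR). LINC00452 (-1.97) lost it without replicate 1 of shNR4A2 + LPS or replicate 1 or 3 of shNR4A3 + LPS (up to 0.088), and AC106786.1 (-1.91), which overlaps PRDM6 on the opposite strand, in all fits but that without shNR4A2 + LPS replicate 3 (up to 0.145).

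**Figure D3:**
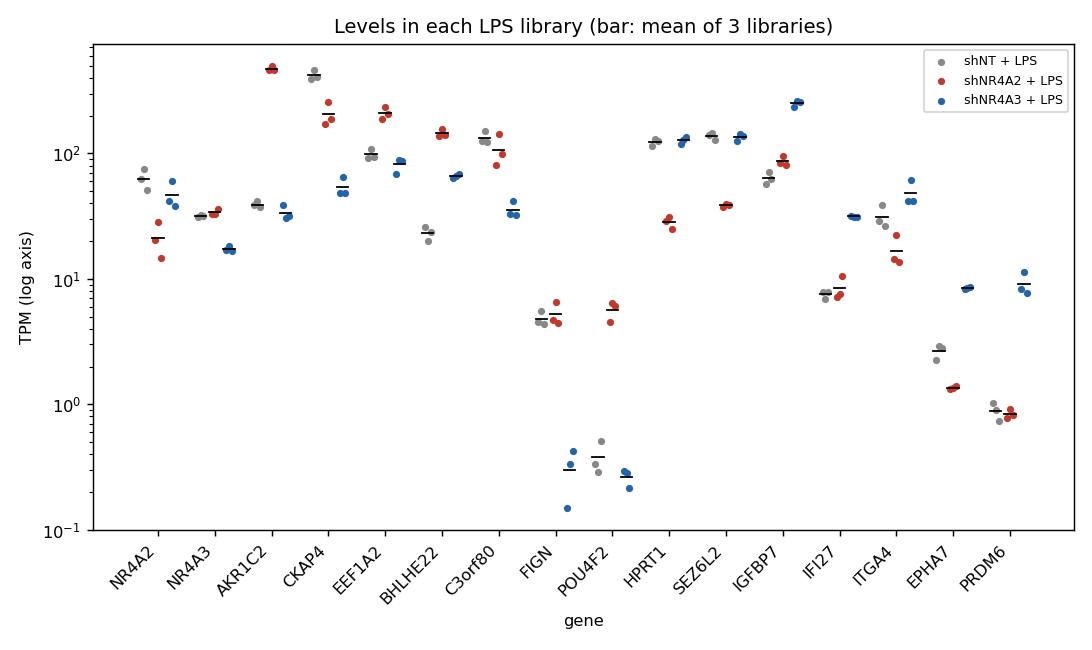
Level in TPM (y axis, log scale) of 16 genes in each of the 9 LPS libraries, 1 point a library and a bar at the mean of 3, grey for shNT, red for shNR4A2 and blue for shNR4A3. The red and blue points do not overlap in any of the 16 genes, and the grey points lie with blue for AKR1C2 and HPRT1, with red for FIGN and PRDM6, and above both for CKAP4.

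Over all called genes, neither line was the one nearer to shNT + LPS. On mean log2(TPM + 0.1), the shNT level was nearer to shNR4A2 for 48 of the 105 genes higher in shNR4A2 and nearer to shNR4A3 for 57. For the 44 genes higher in shNR4A3 it was nearer to shNR4A2 in 19 and to shNR4A3 in 25. The share nearer to shNR4A2 among all genes tested was 49.0%. The shNT mean lay between the 2 lines for 73 of the 105 and 31 of the 44.

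Most of these differences were also present without LPS. In the control libraries of the same lines, 15584 genes were tested and 168 were called higher in shNR4A2 (1.08%) and 46 higher in shNR4A3 (0.295%) at 2-fold, 214 in all, and 308 with the replicate block. Of the 105 genes higher in shNR4A2 with LPS, 100 could be tested without it, all 100 had the same direction and 75 were called again. Of the 44 genes higher in shNR4A3, 43 could be tested, 42 had the same direction and 31 were called again. The 106 genes called in both states were 74.1% of those called with LPS and tested in both, and 49.5% of the 214 called without. Without shNR4A3 + LPS replicate 1 they were 54, without replicate 3 of that group 62, and with the replicate block 174. Across the 14932 genes tested in both states, the 2 log2 fold changes had a Pearson r of 0.69 and a Spearman coefficient of 0.60, and genes are not independent replicates. HPRT1 differed by -1.98, AKR1C2 by 3.68 and POU4F2 by 4.49 on the log2 scale without LPS.

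**Figure D4:**
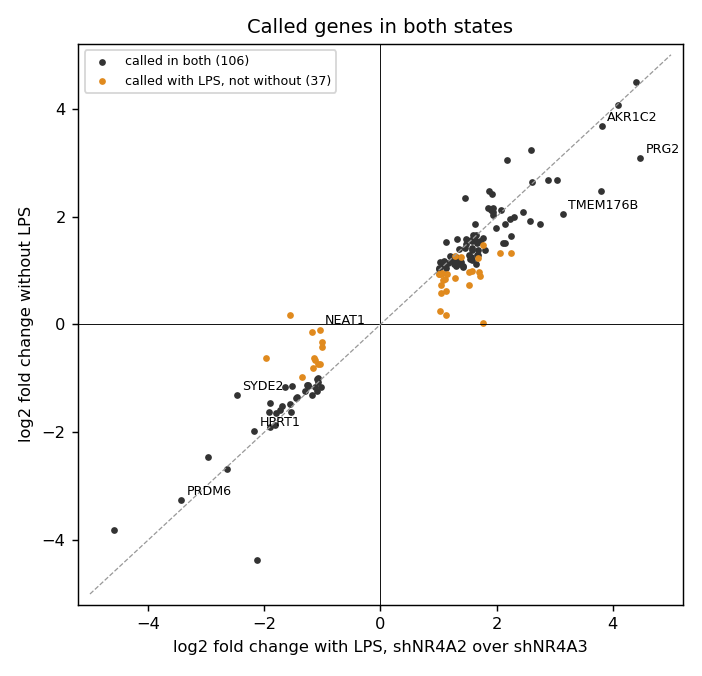
Log2 fold change, shNR4A2 over shNR4A3, with LPS (x axis) and without LPS (y axis), for the 143 genes called with LPS and tested in both states, 1 point a gene. Dark points are the 106 called in both states, the dashed line is equality, and 142 points share a direction.

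A difference of the line effect between the states was tested directly, as the interaction of line and LPS over 12 libraries. By edgeR, 0 of 16447 genes passed an adjusted p of 0.05, and 396 had an unadjusted p under 0.05. DESeq2 called 1 gene, AL663070.1, a processed pseudogene within MFSD2A, with an interaction of -1.23 on the log2 scale (adjusted p = 0.041). Both genes lie on the same strand and reads could be shared between them, and MFSD2A had an interaction of -0.70 (adjusted p = 0.012 by edgeR) without the filter on low counts. With the replicate block, edgeR called 0, with 874 at an unadjusted p under 0.05, and without the filter on low counts it called 29, of which 27 had an interaction below 0 and 2 above. Those below 0 included TNF (-1.01), NEAT1 (-0.97), the chemokine gene CCL2 (-1.39), IL1B (-0.65) and NR4A3 (-2.20), and those above 0 were DLX3 (1.83) and SNAI3 (1.30), all named after their values were seen. With the filter, the smallest adjusted p of any gene was 0.90 by edgeR, so none of these genes passed. In that filtered fit, NR4A3 had an interaction of -2.18 (SE 0.49, adjusted p = 1.00 by edgeR) on the log2 scale. NR4A3 stood at 0.71, 0.69 and 1.41 TPM in shNR4A2 control cells and at 0.16, 0.11 and 0.03 TPM in shNR4A3 control cells, a log2 fold change of 3.15 without LPS against 0.98 with it. The control levels of NR4A3 were all under 2 TPM. TNF, which encodes tumour necrosis factor, stood at 55.5, 96.8 and 65.4 TPM in shNR4A2 control cells and 19.3, 39.8 and 35.2 TPM in shNR4A3 control cells, a log2 fold change of 1.17 (adjusted p = 0.021 by edgeR). IL1B, which encodes interleukin-1 beta, differed by 0.80 in the control libraries (35.6, 28 and 33.5 TPM against 17.5, 18 and 18.3 TPM, adjusted p = 0.0043 by edgeR).

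The LPS response of shNT cells was used to find which inducible genes differed between the lines. Of 689 tested genes that LPS raised at least 2-fold in shNT cells, 6 were called higher in shNR4A2 and 2 higher in shNR4A3 at 2-fold. The shares of all genes tested were 0.676% and 0.283%. With no fold limit 2.47% of the 689 passed by edgeR, near the 2.33% of all genes tested. The median log2 fold change of the 689 between the lines was -0.07. With the replicate block and no fold limit, 98 were higher in shNR4A2 and 156 in shNR4A3, together 36.9% against 23.6% of all genes tested. In the control libraries 508 of these genes were tested and the balance lay the other way, with a median of 0.11. By edgeR with no fold limit 34 were higher and 5 lower in shNR4A2 (7.68%), and with the block 78 and 31 (21.5%). Of the 14932 genes tested in both states, 294 were higher and 177 lower in the control libraries (3.15%). With the block these were 917 and 854 (11.9%). The difference in balance between the states was not tested. NR4A2 itself and the long noncoding RNA NEAT1, a scaffold of nuclear paraspeckles, were the 2 higher in shNR4A3. NEAT1 had 17.5, 17.3 and 16.3 TPM in shNR4A2 + LPS and 37.5, 42.4 and 26.1 TPM in shNR4A3 + LPS, a log2 fold change of -1.05 (SE 0.16, adjusted p = 0.013 by edgeR), and differed by -0.10 without LPS. PDGFB, a platelet-derived growth factor chain (1.43), CAV1, the main protein of caveolae (1.93), HCP5 (1.58), ZNF723 (1.93) and AC091182.1 (1.63) were among the inducible genes higher in shNR4A2. The count of 8 was 4 without shNR4A2 + LPS replicate 1, 3 without shNR4A3 + LPS replicate 1, 5 without replicate 2 and 5 without replicate 3 of shNR4A3, and 12 without shNR4A2 + LPS replicate 2. The call was lost without shNR4A3 + LPS replicate 1 for NEAT1 (adjusted p = 0.061 by edgeR) and CAV1 (0.073). For HCP5 it was lost without replicate 1 of either line or replicate 3 of shNR4A3 (up to 0.070), and without shNR4A2 + LPS replicate 1 or shNR4A3 + LPS replicate 3 for PDGFB (up to 0.084). HCP5 overlaps MICA on the same strand, so reads could be shared.

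Of 391 tested genes that LPS lowered in shNT cells, 4 were called higher in shNR4A2 and 1 higher in shNR4A3, with a median of 0.10. The shares of all genes tested were 0.676% and 0.283%. With no fold limit 1.28% of the 391 passed by edgeR, against 2.33% of all genes tested. With the replicate block and no fold limit, 50 were higher in shNR4A2 and 24 in shNR4A3, together 18.9% against 23.6% of all genes tested. In the control libraries the median of these genes was 0.00076. There 11 were higher and 9 lower in shNR4A2 by edgeR with no fold limit (5.12%, against 3.15% of all genes). With the block 27 were higher and 33 lower in the control libraries (15.3%, against 11.9%). The 1 called higher in shNR4A3 with LPS was ID1, an inhibitor of basic helix-loop-helix factors, with means of 36.1 and 74.3 TPM (log2 fold change -1.04). Its call was lost without replicate 1 of either line or replicate 3 of shNR4A3 (adjusted p up to 0.095 by edgeR). The other 4, named after their values were seen, were KALRN (1.67), GPR55 (1.58), SPSB1 (1.03) and AC093278.2 (1.70). All 4 lost the call in at least 5 of the 6 fits with a library left out (adjusted p up to 0.165 by edgeR). With LPS libraries left out 1 at a time, the count of LPS-lowered genes called was 0 without shNR4A2 replicate 2 or shNR4A3 replicate 1 or 3. It was 1 without shNR4A2 replicate 1 or shNR4A3 replicate 2, and 3 without replicate 3 of shNR4A2 or of shNT. Genes called in such a fit need not be those named above. Without shNR4A2 + LPS replicate 3, GPR55, KALRN and AC093278.2 did not pass. Dropping shNT control replicate 1 also left 3.

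Secreted mediators of inflammation were described by 2 lists. Of 21 tested cytokine genes, 0 passed the adjusted p in edgeR, with a list median of -0.09. At an unadjusted p under 0.05 there were 3 higher and 1 lower, and DESeq2 called 2 higher. With the replicate block 4 were higher and 4 lower in shNR4A2. With LPS, TNF had means of 2127 TPM in shNR4A2 and 1868 TPM in shNR4A3 (log2 fold change 0.18, SE 0.11, adjusted p = 0.45 by edgeR). IL1B had means of 6014 and 5326 TPM (0.18, SE 0.24, adjusted p = 0.76 by edgeR). Of 18 tested chemokine genes, CCL5 alone passed, with a list median of 0.03, and with the block 4 were higher and 2 lower. CCL5, a chemokine for T cells and monocytes, had 929, 775 and 902 TPM in shNR4A2 + LPS and 556, 449 and 544 TPM in shNR4A3 + LPS. Its log2 fold change was 0.75 (SE 0.15, adjusted p = 0.038 by edgeR), and the call was lost in all fits but that without shNR4A2 + LPS replicate 2, with adjusted p up to 0.143. CXCL10, an interferon-induced chemokine, varied widely among libraries, at 246, 206 and 569 TPM and 535, 354 and 847 TPM, and was lower in shNR4A2 within each replicate number. Its log2 fold change was -0.76 (adjusted p = 0.40 by edgeR, and 2.7e-05 with the block).

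Among 24 NF-kappaB subunits and feedback inhibitors, IRAK3, a kinase-like inhibitor of Toll-like receptor signalling, passed at a log2 fold change of -0.49 (means 43.0 and 60.4 TPM, adjusted p = 0.030 by edgeR) and lost the call in all 6 fits with a library left out (up to 0.126). The list median was -0.08, and with the block 2 were higher and 9 lower in shNR4A2, together 45.8% against 23.6% of all genes tested. Of 17 tested Toll-like receptor signalling genes 0 passed in edgeR and 0 in DESeq2, with 1 lower at an unadjusted p under 0.05 (median 0.03, with the block 2 higher and 3 lower). Of 18 immediate early transcription factors 0 passed in either, with 2 higher and 1 lower unadjusted (median 0.03, with the block 4 higher and 4 lower, together 44.4%).

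Interferon-stimulated genes lay lower in shNR4A2 cells. These antiviral genes are driven by type I interferon. Of 38 genes, all tested, 34 had a log2 fold change below 0 and the list median was -0.41, against 0.01 for all genes tested. In edgeR 2 passed, both lower, and in DESeq2 4, all lower. With the replicate block 25 were lower and 1, GBP2, was higher. The level was lower in shNR4A2 in all 3 replicate numbers for 27 of the 38 (71.1%), against 26.2% of all genes tested. IFI27, a mitochondrial interferon-induced protein, had 7.16, 7.55 and 10.5 TPM in shNR4A2 + LPS and 31.6, 31.3 and 31.3 TPM in shNR4A3 + LPS, a log2 fold change of -1.90 (SE 0.16, adjusted p = 0.00094 by edgeR). Its shNT + LPS level was that of shNR4A2, at a mean of 7.55 TPM. XAF1, a proapoptotic protein, differed by -0.71 (7.49 and 12.3 TPM, adjusted p = 0.036 by edgeR), and lost the call in all 6 fits with a library left out (up to 0.157). IFI6, a membrane protein that restricts viral replication, had 179, 313 and 443 TPM against 638, 586 and 688 TPM, a log2 fold change of -1.04 (adjusted p = 0.090 by edgeR, and 0.00034 with the block). ISG15, a ubiquitin-like modifier, had 95.5, 115 and 192 TPM against 177, 151 and 221 TPM, so the groups overlapped (-0.45, adjusted p = 0.42 by edgeR, and 0.0056 with the block). In the control libraries 37 of the list were tested and the median was -0.20, with 1 gene higher and 2 lower in edgeR (8.11%, against 3.15% of the 14932 genes tested in both states) and 1 higher and 10 lower with the block (29.7%, against 11.9%).

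The core of the interferon-stimulated response element, GAAA and GAAA with any 2 bases between them, was searched on both strands in RefSeq promoters (GRCh38.p14, 250 bases before to 50 after a start site). It stood in a promoter of 19 of the 26 interferon-stimulated genes with an entry (73.1%) and of 4.12% of the 10709 tested genes matched by symbol. The list itself is defined by the response to interferon. The promoters of IFI27 and IFI6, whose values are given above, are shown 5′ to 3′ with the matches in capitals. That of IFI27 is chr14:94110486-94110785 on the plus strand, 1 of 2 listed for the gene, and that of IFI6 is chr1:27672143-27672442 on the minus strand.
IFI27: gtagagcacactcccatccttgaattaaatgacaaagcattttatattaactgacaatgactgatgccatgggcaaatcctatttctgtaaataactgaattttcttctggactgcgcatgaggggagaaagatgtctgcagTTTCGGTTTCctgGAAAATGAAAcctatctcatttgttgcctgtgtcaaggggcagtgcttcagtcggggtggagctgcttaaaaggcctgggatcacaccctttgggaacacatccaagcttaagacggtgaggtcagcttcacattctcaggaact
IFI6: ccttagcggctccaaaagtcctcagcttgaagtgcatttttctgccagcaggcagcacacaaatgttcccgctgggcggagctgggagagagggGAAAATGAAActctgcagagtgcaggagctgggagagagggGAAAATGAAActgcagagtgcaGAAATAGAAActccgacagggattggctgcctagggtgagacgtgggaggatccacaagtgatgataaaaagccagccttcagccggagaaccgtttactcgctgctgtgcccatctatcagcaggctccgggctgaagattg
Both promoters hold more than 1 match before the start site, and the search says nothing of which factor is bound.

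Aldo-keto reductases and targets of NRF2, the transcription factor of the antioxidant response, lay higher in shNR4A2 cells. Of 21 genes, all tested, 19 had a log2 fold change above 0, with a median of 0.38. In edgeR 4 passed, all higher, and in DESeq2 5, all higher. The 4 were SLC7A11 and the paralogs AKR1C1, AKR1C2 and AKR1C3, among which reads may be shared. With the block 15 were higher and 0 lower. The level was higher in shNR4A2 in all 3 replicate numbers for 16 of the 21 (76.2%), against 27.3% of all genes tested. The list holds AKR1C2, which the study names from these samples. SLC7A11, the cystine transporter of glutathione synthesis, had 104, 113 and 118 TPM against 72.2, 53.2 and 65.2 TPM, a log2 fold change of 0.81 (SE 0.14, adjusted p = 0.029 by edgeR). Its call was lost without shNR4A2 + LPS replicate 1 or 3 or shNR4A3 + LPS replicate 3 (up to 0.126). NQO1, a quinone reductase, had 142, 125 and 240 TPM against 92.2, 64.9 and 112 TPM, with a log2 fold change of 0.91 (adjusted p = 0.15 by edgeR, and 8.3e-06 with the block). GCLM, a subunit of the first enzyme of glutathione synthesis, differed by 0.72 (adjusted p = 0.26 by edgeR, and 7.1e-05 with the block). NFE2L2, which encodes NRF2, had means of 405 and 380 TPM (0.09, adjusted p = 0.82 by edgeR). In the control libraries the list median was 0.46, with 7 of 21 genes higher and 0 lower in edgeR (33.3%, against 3.15% of the genes tested in both states) and 12 higher and 0 lower with the block (57.1%, against 11.9%). The antioxidant response element core, TGACNNNGC, was searched on both strands in the same promoters. It stood in 5 of the 17 genes of the list with an entry (29.4%) and in 19.5% of the tested genes matched, and was not found in these windows for AKR1C1, AKR1C2 or AKR1C3.

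**Figure D5:**
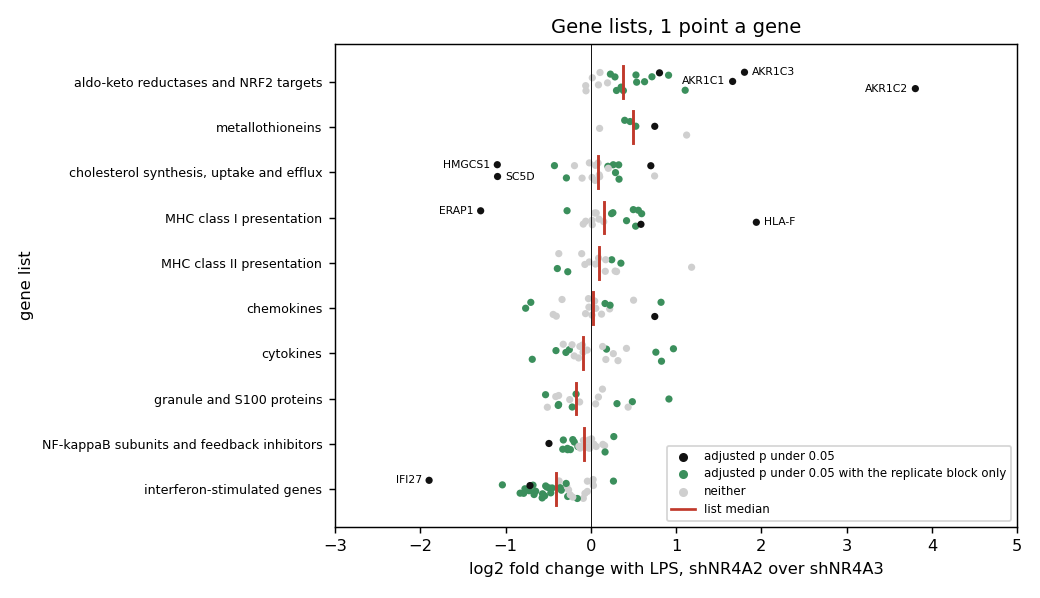
Log2 fold change, shNR4A2 over shNR4A3 with LPS (x axis), of the tested members of 10 gene lists (y axis), 1 point a gene with vertical scatter for legibility and a red bar at the list median. Black points passed an adjusted p of 0.05 in edgeR and green points only with the replicate block, and the interferon-stimulated genes sit mostly left of 0 (median -0.41) and the aldo-keto reductase and NRF2 genes mostly right (median 0.38).

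Genes of antigen presentation by MHC class I, which displays cytosolic peptides to CD8+ T cells, lay mostly higher in shNR4A2 cells, with exceptions. Of 19 genes, 15 had a log2 fold change above 0 and the median was 0.15. In edgeR 2 were higher and 1 lower, in DESeq2 6 and 1, and with the block 9 and 2. The level was higher in shNR4A2 in all 3 replicate numbers for 11 of the 19 (57.9%), against 27.3% of all genes tested. HLA-F, a nonclassical class I molecule, had 4.10, 4.14 and 4.41 TPM in shNR4A2 + LPS and 1.02, 1.28 and 1.00 TPM in shNR4A3 + LPS, a log2 fold change of 1.94 (SE 0.20, adjusted p = 0.0029 by edgeR). PSMB9, a catalytic subunit of the immunoproteasome, differed by 0.59 (adjusted p = 0.029 by edgeR, lost in all 6 fits with a library left out, up to 0.119). ERAP1, the aminopeptidase that trims peptides in the endoplasmic reticulum, went the other way, with 13.6, 16.2 and 14.8 TPM against 34.3, 38.4 and 36.1 TPM (-1.29, SE 0.08, adjusted p = 0.00022 by edgeR), and shNT at 33.7 TPM. The classical genes HLA-B (0.56) and HLA-C (0.53) did not pass in edgeR, with adjusted p of 0.097 and 0.10, and passed with the block, at 5.2e-06 and 9.8e-06. HLA genes are alike in sequence, and reads may be shared among them. Of 15 tested class II genes 0 passed in edgeR and 0 in DESeq2, with 1 higher and 2 lower at an unadjusted p under 0.05 (median 0.09, with the block 2 higher and 2 lower).

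Of 29 tested adhesion and matrix genes, 2 (6.90%) were lower in shNR4A2 and 0 higher (median -0.06, with the block 6 higher and 8 lower). ITGA4, the integrin alpha-4 chain by which monocytes bind VCAM-1, had 14.3, 22.3 and 13.6 TPM against 41.6, 61.5 and 41.4 TPM, a log2 fold change of -1.53 (SE 0.18, adjusted p = 0.0057 by edgeR), with 31.3 TPM in shNT. VCAN, the proteoglycan versican, differed by -0.59 (15.0 and 22.4 TPM, adjusted p = 0.0091 by edgeR) and lost the call without shNR4A3 + LPS replicate 1 or 3 (up to 0.062). Of 21 tested genes of cholesterol metabolism, 1 was higher and 2 lower, together 14.3% (median 0.09, with the block 6 higher and 4 lower). HMGCS1, the cytosolic HMG-CoA synthase, had 92.2, 111 and 60.9 TPM against 190, 211 and 160 TPM (-1.10, adjusted p = 0.022 by edgeR), and lost the call in 4 of the 6 fits (up to 0.089 without shNR4A3 + LPS replicate 1). SC5D, a late enzyme of the pathway, differed by -1.09, and SQLE, squalene epoxidase, by 0.70, the latter lost without shNR4A3 + LPS replicate 1 or 3 (up to 0.067). Members of the same pathway thus lay in both directions. Of 6 tested metallothionein genes, which encode metal-binding proteins, MT1G was higher (0.75, adjusted p = 0.037 by edgeR, up to 0.157 with a library left out) and the list median was 0.49, with 4 higher and 0 lower with the block. Reads of these short, alike genes may be shared. Of 26 tested myeloid surface receptors, the scavenger receptor CD36 alone passed (-1.27, 5.11 and 12.3 TPM, adjusted p = 0.026 by edgeR, lost in 4 of the 6 fits, up to 0.092), and with the block 7 were higher and 7 lower. Of 25 cell cycle genes, CDKN1A, the inhibitor p21, alone passed (0.55, 298 and 203 TPM, adjusted p = 0.019 by edgeR, lost in 5 of the 6 fits, up to 0.131), and with the block 5 were higher and 5 lower. Of 17 granule and S100 genes (median -0.17), 16 tested myeloid transcription factors (-0.08), 20 glycolysis genes (0.03) and 14 BCL2 family genes (0.02), 0 passed in edgeR. DESeq2 called 1 higher and 2 lower among the granule and S100 genes, 1 lower in the BCL2 family and 0 in the other 2 lists. At an unadjusted p under 0.05 the numbers higher and lower were 2 and 4, 0 and 3, 2 and 1, and 1 and 1, in the order of the lists. With the block, the granule and S100 genes had 3 higher and 5 lower and the myeloid transcription factors 2 higher and 6 lower, the glycolysis genes 3 and 3, and the BCL2 family 2 and 2. Of 5 genes for NR4A receptors and RXR, NR4A3 was higher and NR4A2 lower, and with the block 2 were higher and 2 lower. Per the study, RXR pairs with NR4A1 and NR4A2 but not with NR4A3. Of the 20 tested genes that the study itself names, 6 were higher and 4 lower, and with the block 10 and 4, which is no independent evidence because they were picked on these libraries.

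Monocyte markers were the most abundant of the cell type markers. All 8 monocyte markers were tested, 0 passed in edgeR and 5 passed with the block, and their summed level ran from 2284 to 2927 TPM in shNR4A2 + LPS and from 2316 to 2837 TPM in shNR4A3 + LPS, with SPI1 the most abundant. Of 6 T cell markers, TRAC alone was tested. It had 4.52, 5.15 and 4.52 TPM against 1.13, 1.81 and 1.47 TPM (1.68, adjusted p = 0.019 by edgeR, lost in 5 of the 6 fits, up to 0.095), while CD2 was at 0 in all 6 libraries and CD3E had means of 0.082 and 0.085 TPM. The summed level of the 6 was 4.96, 6.02 and 5.21 TPM in shNR4A2 and 1.43, 3.21 and 2.06 TPM in shNR4A3. Of 6 markers of macrophages, 4 were tested, 0 passed in edgeR and 1 passed with the block, with summed levels of 40.2, 18.8 and 28.6 TPM against 22.2, 12.1 and 15.1 TPM, of which APOE was the most abundant. What part differences in cell state had in the other results was not tested. The 4 B cell markers summed to 5.75, 9.68 and 8.19 TPM against 4.14, 6.64 and 7.06 TPM, with 0 passing in edgeR and 1 with the block. The 4 endothelial markers summed to 1.01, 1.68 and 1.68 TPM against 0.758, 0.627 and 0.920 TPM, again with 0 and 1, and TEK was the most abundant in means of 0.845 and 0.220 TPM. The megakaryocyte, natural killer cell and fibroblast markers summed to 7.90, 2.39 and 1.31 TPM at most, with 0 passing in either fit. The 4 erythroid markers summed to 0.14 TPM at most, and the 4 epithelial markers to 1.20 TPM.

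The NBRE letters AAAGGTCA were searched on both strands in the same promoters. They stood in 0 of the 66 genes called higher in shNR4A2 with an entry and in 0 of the 31 called higher in shNR4A3, against 1.20% of the tested genes matched. The 7-letter core AAGGTCA, which contains no further base of the element, stood in 3 of these 97 genes (3.09%), against 3.83%. They were C3orf80 and USH1C, higher in shNR4A2, and ERV3-1, higher in shNR4A3. The promoters of the first 2 are shown 5′ to 3′ with the 7 letters in capitals, chr3:160225172-160225471 on the plus strand for C3orf80 and chr11:17533836-17534135 on the minus strand for USH1C, the latter being 1 of 2 promoters listed for the gene.
C3orf80: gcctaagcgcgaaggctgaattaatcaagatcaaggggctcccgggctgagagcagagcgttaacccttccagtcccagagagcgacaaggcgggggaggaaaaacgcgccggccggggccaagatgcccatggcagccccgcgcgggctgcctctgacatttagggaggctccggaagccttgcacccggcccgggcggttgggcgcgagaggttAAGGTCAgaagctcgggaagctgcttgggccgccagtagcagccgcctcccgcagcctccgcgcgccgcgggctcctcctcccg
USH1C: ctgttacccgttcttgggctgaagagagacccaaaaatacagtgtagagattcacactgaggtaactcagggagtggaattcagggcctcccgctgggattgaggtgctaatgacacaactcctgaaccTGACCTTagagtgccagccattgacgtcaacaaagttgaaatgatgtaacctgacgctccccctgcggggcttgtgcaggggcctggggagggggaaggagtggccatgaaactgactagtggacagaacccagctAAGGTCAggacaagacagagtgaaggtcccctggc
In USH1C the letters occur on each strand once. The shares in called genes were no higher than in all tested genes, but with so few matches a difference in share could not be seen. These windows reach 250 bases before a start site, and the study searched further upstream of a few selected genes. It reports the full element in CACNA2D1 and partial forms in AKR1C2, NCAM1 and HLA-F, all upstream of the windows used here.

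By position, the median log2 fold change was near 0 on most of the genome and departed in a few stretches. Over 262 windows of 10 Mb with at least 20 tested genes, the central 90% of medians lay between -0.13 and 0.10. The lowest was on chromosome 17 between 10 and 20 Mb, where 58 of 77 genes were lower in shNR4A2, with a median of -0.30 with LPS and -0.27 without. On chromosome 22 the window of 50 to 60 Mb had a median of -0.19 over 31 genes with LPS and of 0.09 without, and its medians within replicate numbers 1, 2 and 3 with LPS were -0.14, -0.23 and 0.02, so its direction did not hold among replicates. The first 10 Mb of chromosome 17 had a median of -0.18 over 168 genes (-0.15 without LPS). On chromosome 5, the windows of 10 to 20, 30 to 40 and 40 to 50 Mb had medians of -0.22, -0.23 and -0.24 over 20, 41 and 30 genes, and of -0.17, -0.22 and -0.31 without LPS. XAF1 on chromosome 17 and HMGCS1 on chromosome 5 lie in these stretches, as does OSMR on chromosome 5, which was higher in shNR4A2. The highest window was on chromosome 13 between 90 and 100 Mb, with a median of 0.20 over 21 genes with LPS and 0.03 without. Its medians within replicate numbers 1, 2 and 3 with LPS were lower, at 0.04, 0.05 and 0.14. Next came the window of 140 to 150 Mb on chromosome 7, with a median of 0.17 over 52 genes with LPS and 0.19 without. Its medians within replicate numbers were 0.09, 0.20 and 0.13.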

How the data were processed

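Per the labels and the study's methods, the authors made polyadenylated libraries, read 2 × 150 bases, and deposited whole-number counts of reads per Ensembl gene with gene lengths. The submitters' processing notes name Trimmomatic 0.36, STAR 2.5.2b, featureCounts from Subread 1.5.2 and GRCh38. The strand setting is not given in the sources used here. Symbols came from GENCODE 29 (56898 of 57500 genes). Conditions were read from the sample titles.

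The 6 libraries were fitted in edgeR 4.0.16 (R 4.3.3) with filterByExpr, TMM and the quasi-likelihood test, without a block, and p-values were adjusted by Benjamini-Hochberg over all genes tested. Alternatives were DESeq2 1.42.0, RLE, no filter, a replicate block, all 18 libraries, glmTreat, a 1.4-fold limit and each library left out. Same-numbered libraries of the lines had residual correlations of 0.35, 0.53 and 0.39, all over the limit of 0.1, so the numbers pair them, and the study states independent experiments. Nothing else says that libraries came from separate cultures. The procedure was tested on simulated data, and the outcome of that test is not given here. Named genes were the receptors, list members, the 14 genes a direction with the largest fold change (groups apart, at least 1 TPM), the 8 most abundant, and the 8 most LPS-raised in shNT. Members and lists were chosen with earlier results of these data known, and the response element searches other than the NBRE after seeing the data. Some genes are not reported here.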

Additional observations from a re-analysis of the deposited data

How the results depend on the processing

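The counts moved with the setting more than the direction of the named genes did. The 2-fold count of 149 (105 higher and 44 lower in shNR4A2) was 268 with all 18 libraries in 1 fit. It was 327 without the filter, 379 with the replicate block, and 61 to 117 with a library left out. With glmTreat it was 20 (10 higher and 10 lower), and at 1.4-fold 335 (186 higher and 149 lower). With no fold limit, the 362 were 698 by DESeq2, 1032 with all 18 libraries, 1102 without the filter, 3666 with the block, and 94 to 217 with a library left out. Without LPS, 150 to 201 genes were called with a library left out, against 214. The interaction was 1 by DESeq2 and 29 without the filter, against 0, and 0 in each of the fits with a library left out. NR4A2 ranged from -1.36 to -0.96 with a library left out. For NR4A1 the block gave -0.27 (adjusted p = 0.014 by edgeR). Genes called in both states were 174 with the block, 224 with no fold limit and 54 to 101 with a library left out, against 106. LPS-raised genes called were 21 by DESeq2, 33 with the block, 17 with no fold limit and 3 to 12 with a library left out, against 8. LPS-lowered genes called were 8 by DESeq2, 14 with the block and 0 to 6 with a library left out, against 5. The first component held 38.0% with all tested genes and 54.0% after a variance-stabilizing transformation. The NBRE stood in 0.392% of genes called with no fold limit, and its 7 letters in 3.09% of genes called at 2-fold, against 0 for the NBRE there. Named genes kept their direction in every setting run. Of 65 named genes called, DESeq2, RLE, no filter and the block each kept the call of all 65, and fits with a library left out kept 290 calls and lost 100. The 65 were counted because the main fit called them. These settings refit the same libraries, so the kept calls and directions are no independent evidence. Depth limits the genes of under 1 TPM, of which 8 were called.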
